A study of Mus musculus with 23 samples.

Results

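Cultured B16F10 cells edited with the Nr2f6 guide sg492 were compared with cultured control B16F10 cells, with 2 RNA-seq libraries in each group out of 23 libraries in the series. The genes described were the 12020 of 47643 in the table (25.2%) with a mean of at least 1 TPM, a transcript level scaled for length and library size, over these 4 libraries. B16F10 is a pigmented mouse melanoma line of C57BL/6 origin. The labels give the control cells the genotype WT and the sg492 cells the genotype NR2F6 KO, and name no treatment. By the study's methods, edited cells had received Cy3-labeled guide RNA with Cas9 protein and were sorted as a Cy3+ pool after 24 h, so that they can hold several alleles. Cultured cells edited with a second guide, sg495, and sg492 and control libraries from bulk tumors and from tumor cells sorted out of tumors, were used only to place the result.

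NR2F6 is an orphan receptor of the nuclear receptor superfamily, of the same subfamily as the COUP transcription factors. Such factors bind DNA at copies of the half-site AGGTCA and mostly repress transcription. In T cells, NR2F6 is known as a repressor of cytokine genes. Melanoma cells keep much of the melanocyte program, including the pigment enzymes and the transcription factors Mitf and Sox10. They also depend strongly on glycolysis, whose enzymes are among the genes that the hypoxia-inducible factors (HIFs) activate through sites with the core ACGTG or GCGTG.

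The cells carried the markers of their label. All 10 melanocyte lineage markers were measured in the 4 libraries, from Trpm1 at 38.0 to 43.5 TPM to Tyrp1 at 5196 to 5418 TPM. Ptprc, Cd3e, Itgam and Tyrobp of leukocytes, Dcn and Lum of fibroblasts, Kdr and Tek of endothelial cells and Krt5, Krt14 and Trp63 of keratinocytes were listed at 0 in all 4. Of the whole lists, 14 of 23 leukocyte, 4 of 11 fibroblast, 4 of 10 endothelial and 9 of 12 keratinocyte genes were at 0 in all 4. The summed level was 6.43 to 6.79 TPM for leukocytes, 12.4 to 15.5 TPM for fibroblasts and 2.52 to 3.51 TPM for keratinocytes. The endothelial sum was 115 to 146 TPM, nearly all from Eng, a TGF-β co-receptor, which was 127 and 114 TPM in controls and 145 and 133 TPM with sg492. Over the 6 cultured libraries 11925 to 12045 genes reached 1 TPM, and mitochondrially encoded transcripts made up 2.56 to 3.65% of TPM. TPM keeps no sequencing depth per library. The labels give a depth of 23000000 to 31000000 reads.

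Nr2f6 itself was 31.9 and 32.9 TPM in the control libraries and 26.6 and 31.5 TPM in the sg492 libraries. Both sg492 values were below both control values, but the difference did not pass the test (log2 difference −0.16, standard error (SE) 0.11, adjusted p = 0.66 in limma). With sg495, Nr2f6 was 18.6 and 22.4 TPM. An edit in coding sequence need not alter the level of a transcript, and the sources used here do not give the edited position, so this is no check of the protein. The study's methods state that the knockout was checked by immunoblot and by sequencing the targeted regions. The study also assessed Nr2f6 mRNA by qPCR in B16F10 cells edited with these guides. On a list of 6 tested genes around Nr2f6 none was called. Nacc1, a gene of the same chromosome, was 89.8 and 86.4 TPM in controls and 93.0 and 93.4 TPM with sg492, and Fkbp10, a collagen chaperone, was 11.5 and 9.09 TPM in controls and 6.99 and 8.48 TPM with sg492. Neither passed the test (adjusted p = 0.62 and 0.49 in limma). By qPCR, another measure, the study reported both genes as lower in B16F10 cells with the knockout.

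Few genes passed the test, although 1271 of 12020 (10.6%) had an unadjusted p below 0.05 in limma. Tubb2b, Tspan7 and the pseudogene Gm13611 were up-regulated with sg492 (3 genes, 0.025%), and Cited1, Gm22721 and Gm2423 were down-regulated (3 genes, 0.025%), 6 of 12020 genes in all (0.0499%). A gene was called where limma, fitted to log2(TPM + 1) of the 6 cultured libraries, gave a Benjamini-Hochberg adjusted p below 0.05 over all genes and a fold change of at least 1.5. Only 3 of the 6 are protein-coding. Tubb2b reached the level needed to be tested through its sg492 libraries alone, and Gm2423 through its control libraries alone. The calls of these genes are therefore given as a description. Each call used all 6 libraries: leaving out any 1 of them left 0 of these 6 called. None of the 6 was called in a fit of the 4 control and sg492 libraries alone (adjusted p between 0.0565 and 0.0872 in limma) or with the replicate number as a block (adjusted p between 0.0503 and 0.117 in limma), and with no expression filter 1 of them, Gm2423, was called. Without a fold threshold Bnip3 and Ptgds, both lower with sg492, also had an adjusted p below 0.05 (8 genes, 0.0666%). The labels do not say that libraries came from separate cultures, so p-values measure only the spread between these libraries. An exact permutation test of 2 against 2 cannot reach 0.05.

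Single libraries of different groups differed about as much as those of 1 group. Across genes, the SD of the log2 difference was 0.321 between the 2 control libraries and 0.326 between the 2 sg492 libraries, and it was 0.336 and 0.326 between single sg492 and control libraries of the same number. Most of the large differences lay in weakly expressed or short RNAs. A fold change of at least 1.5 was measured for 145 genes higher (1.21%) and 159 lower (1.32%) with sg492. It was measured for 9.54% of genes with a mean of 1 to 5 TPM and for 0.328% of genes at 20 to 100 TPM. By type, it was measured for 79 of 10718 protein-coding genes (0.737%), 36 of 53 microRNA genes (67.9%), 34 of 63 small nucleolar RNA genes and 95 of 625 processed pseudogenes (15.2%).

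**Figure D1:**
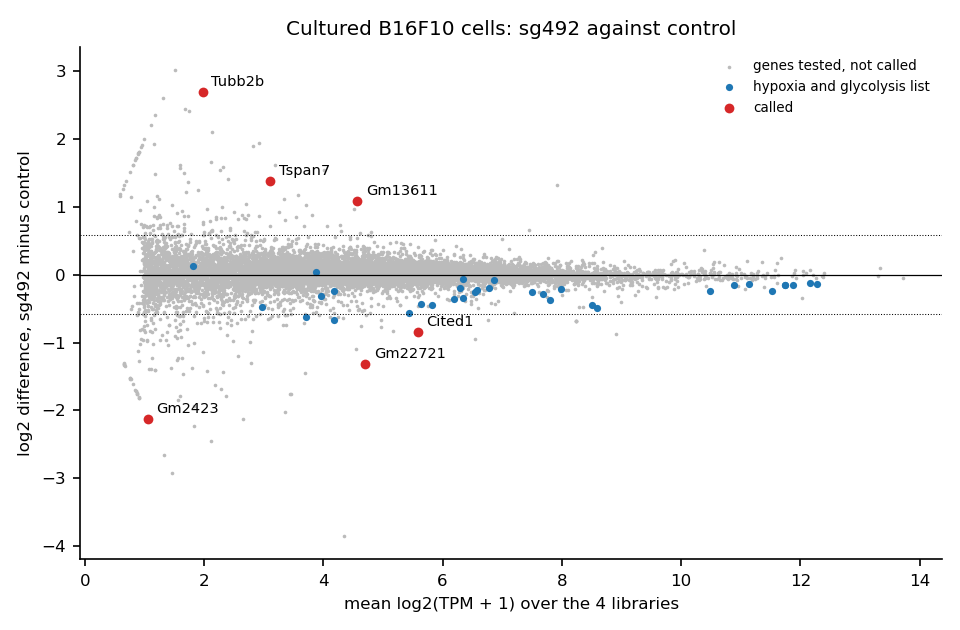
Log2 difference of sg492 minus control on log2(TPM + 1) against the mean log2(TPM + 1) of the 4 libraries, with 1 point per gene for 12020 genes, the 6 called genes in red and the 33 hypoxia and glycolysis genes in blue. Dotted lines mark a fold change of 1.5. The cloud narrows as the level rises, and 31 of the blue points lie below 0.

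Tubb2b, a beta-tubulin isotype best known from the developing nervous system, was 0.81 and 0.32 TPM in control cells and 9.13 and 8.90 TPM in sg492 cells. With sg495 it was 0.06 and 0 TPM. The sg492 libraries were far above the other 4 cultured libraries (log2 difference 2.7 against controls, SE 0.20, adjusted p = 0.024 in limma). Since both controls were under 1 TPM, Tubb2b reached the level needed to be tested through its sg492 libraries. Its adjusted p is therefore given as a description. It was not called with no expression filter (adjusted p = 0.0934 in limma), a pseudocount of 0.1 TPM (0.146), quantile normalization (0.0572) or the 4 libraries alone (0.0565). The neighboring gene Tubb2a encodes a nearly identical protein, and how reads were divided between them was not tested. The coding sequences are both 1335 bases long and 96.5% identical, and 49.0% of the 75-base words of the Tubb2b coding sequence also occur in that of Tubb2a. The next lines give the 75-base coding stretch within 1 exon in which the genes differ most, as an example of a read that tells them apart, at chr13:34129274-34129348 for Tubb2b and chr13:34076577-34076651 for Tubb2a (GRCm38, minus strand, GENCODE M21 transcripts). Capitals mark the 11 bases that differ.
Tubb2b: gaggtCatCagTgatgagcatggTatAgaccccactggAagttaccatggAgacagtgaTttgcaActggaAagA
Tubb2a: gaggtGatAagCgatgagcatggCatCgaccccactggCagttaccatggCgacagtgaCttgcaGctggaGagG
Tubb2a was 19.3 and 19.7 TPM in controls and 21.8 and 21.5 TPM with sg492. Of the 14 tubulin genes tested, Tubb2b was the one called. Tubb3, the neuronal beta-tubulin, was 269 and 260 TPM in controls and 316 and 292 TPM with sg492, without passing the test (adjusted p = 0.31 in limma).

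Tspan7, a tetraspanin of the cell surface found in neurons and some leukemias, was 4.11 and 4.61 TPM in controls and 12.9 and 13.1 TPM with sg492. It was 3.87 and 4.53 TPM with sg495. The sg492 libraries were above all other cultured libraries, and the groups did not overlap (log2 difference 1.38, SE 0.11, adjusted p = 0.024 in limma). Among 19 tetraspanin genes tested, Tspan7 was the one called, and the median log2 difference of the family was 0.07 against 0.03 over all genes. Cd82, a tetraspanin described as a metastasis suppressor, was 7.21 and 7.12 TPM in controls and 5.86 and 4.2 TPM with sg492 (adjusted p = 0.40 in limma).

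Cited1, a CBP/p300-binding coactivator expressed in melanocytes, went the other way. It was 63.1 and 63.6 TPM in controls, 32.6 and 37.0 TPM with sg492 and, for the second guide, 61.8 and 62.2 TPM. Both sg492 libraries were low while the other 4 stood between 61.8 and 63.6 TPM (log2 difference −0.85, SE 0.07, adjusted p = 0.024 in limma). The other CBP/p300 genes tested, Cited2, Crebbp, Ep300, Carm1, Kat2a and Kat2b, had log2 differences between 0.03 and 0.16, and none was called.

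The promoters of Tspan7 and Cited1 are shown because these are the called protein-coding genes with an entry in the promoter table (RefSeq, GRCm38.p6, from 250 bases before to 50 after the start site). Capitals mark the nuclear receptor half-site AGGTCA or its reverse complement TGACCT. The Tspan7 window is chrX:10484866-10485165 (plus strand), with a match that begins 246 bases before the start site. Cited1 has 3 windows, of which the one at chrX:102250727-102251026 (minus strand) holds a match that begins 217 bases before the start site.
Tspan7: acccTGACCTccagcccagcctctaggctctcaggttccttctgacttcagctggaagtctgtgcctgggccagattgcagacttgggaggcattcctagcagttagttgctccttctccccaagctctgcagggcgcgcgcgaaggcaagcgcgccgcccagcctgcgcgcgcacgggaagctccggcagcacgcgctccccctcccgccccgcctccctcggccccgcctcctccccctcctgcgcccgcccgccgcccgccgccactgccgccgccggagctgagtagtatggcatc
Cited1: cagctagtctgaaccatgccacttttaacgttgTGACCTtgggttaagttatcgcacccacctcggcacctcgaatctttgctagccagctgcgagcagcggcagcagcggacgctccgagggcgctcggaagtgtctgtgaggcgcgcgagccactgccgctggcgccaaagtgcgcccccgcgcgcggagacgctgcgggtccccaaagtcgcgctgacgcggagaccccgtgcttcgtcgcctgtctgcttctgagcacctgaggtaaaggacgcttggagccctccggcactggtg
The motif was searched on both strands. It occurs in 16.3% of the 32851 promoter windows of the table, so a match is common and is a description, not a bound site.

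The other 3 called genes are pseudogenes that share sequence with other genes or, for Gm22721, a short transcript inside another gene, and how their reads were divided was not tested. Gm13611 is a processed pseudogene of 318 bases on chromosome 2, and 57.4% of its 75-base words occur in transcripts of other genes. By 25-base words the closest gene was the ribosomal protein gene Rpl36, which shares 78.6% of them. Gm13611 was 15.8 and 14.8 TPM in controls and 32.1 and 35.4 TPM with sg492 (log2 difference 1.09, SE 0.07, adjusted p = 0.024 in limma). With sg495 it was 23.8 and 24.5 TPM, also above both controls (log2 difference 0.63, adjusted p = 0.0062 in limma). Rpl36 was 1708 and 1864 TPM in controls and 1710 and 1750 TPM with sg492. Gm2423, a processed pseudogene on chromosome 13 that shares 88.6% of its 75-base words, was 3.39 and 3.33 TPM in controls and listed at 0 in both sg492 libraries. With sg495 it was 0.32 and 0.31 TPM. It reached the level needed to be tested through its control libraries. Neither pseudogene can be told from its copies with certainty.

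Gm22721, annotated as a microRNA gene, was 42.7 and 37.7 TPM in controls, 16.8 and 14.4 TPM with sg492 and, for the second guide, 22.8 and 23.0 TPM (log2 difference −1.31 for sg492, SE 0.09, adjusted p = 0.024 in limma). On the strand searched, 0 of its 9 words of 75 bases occur in transcripts of other genes. The reverse complement was not searched, and it holds all 83 bases in an exon of Mex3d. The whole annotated transcript, barely longer than a read of 75 bases, is shown because it lies inside that exon on the opposite strand (chr10:80382302-80382384, plus strand, GRCm38).
Gm22721: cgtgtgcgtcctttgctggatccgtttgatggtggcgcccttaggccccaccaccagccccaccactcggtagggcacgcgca
Mex3d, an RNA-binding protein gene, was 12 and 12.4 TPM in controls and 11.1 and 11.3 TPM with sg492. The library kit keeps strand, but the sources used here do not state the strand setting of the counting, so reads of Gm22721 and of Mex3d cannot be told apart with certainty. The table holds no mature microRNA counts, and a poly(A) library does not measure these.

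**Figure D2:**
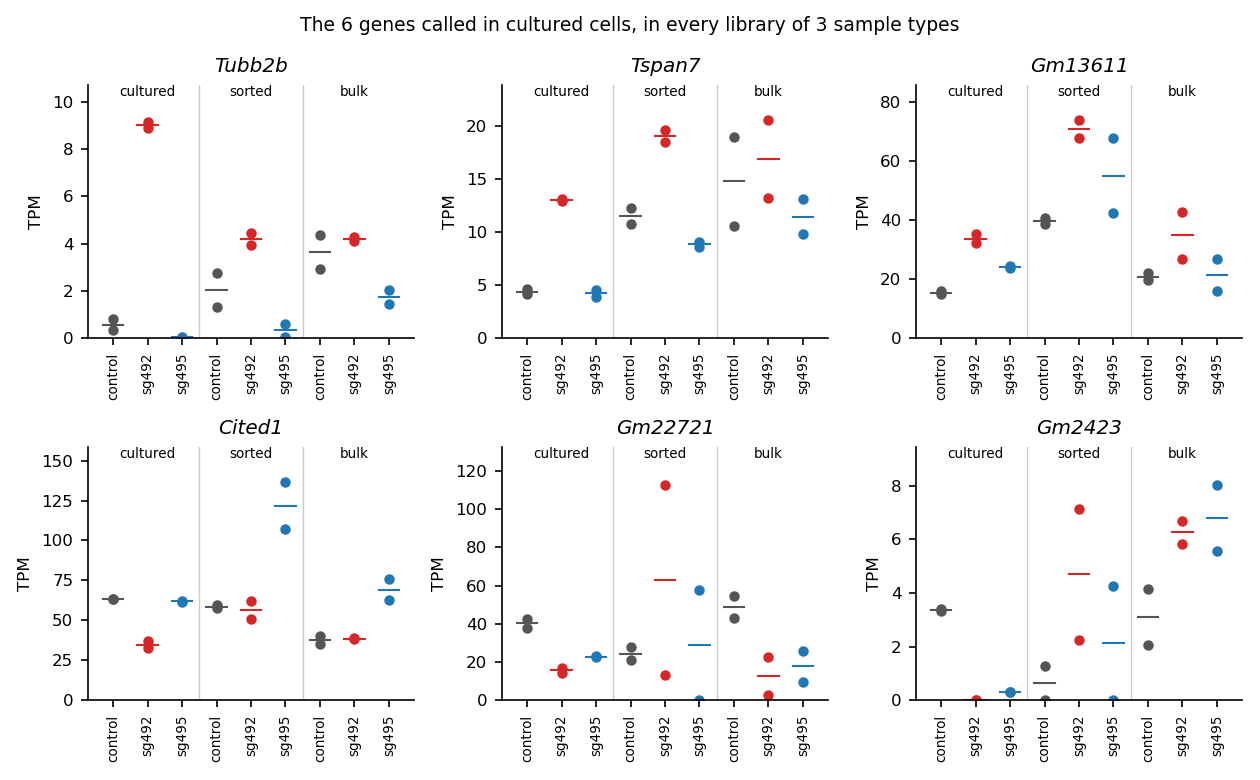
TPM of the 6 called genes in each of 18 libraries, with 1 point per library and a line at the mean of 2, for control, sg492 and sg495 in cultured cells, sorted tumor cells and bulk tumors. In culture the 2 sg492 points of Tubb2b, Tspan7 and Gm13611 lie above both other groups, and those of Cited1, Gm22721 and Gm2423 below.

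Beyond the called genes, the 10 named genes with the smallest unadjusted p in each direction were taken among those with a fold change of at least 1.5 and no overlap between groups. None of these 20 passed the test, with adjusted p between 0.082 and 0.31 in limma. Higher with sg492 were Dpysl3, a cytoskeletal protein of growing axons (8.49 and 7.89 TPM in controls, 16.8 and 18.5 TPM with sg492), and Flrt3, a membrane protein of cell adhesion (1.90 and 2.15 TPM in controls, 4.16 and 4.17 TPM with sg492). Cp, the copper-binding ferroxidase ceruloplasmin, was 7.41 and 6.12 TPM in controls and 12.6 and 12.5 TPM with sg492. Mgll, the monoglyceride lipase that breaks down endocannabinoids, was 13.5 and 10.7 TPM in controls and 22 and 18.8 TPM with sg492. Bmyc, a shortened relative of Myc, was 2.82 and 3.40 TPM in controls and 6.88 and 6.73 TPM with sg492. The other higher genes were Rpl6l, Dyrk3, Fam71f1, Akr1b7 and Slc9b2, with log2 differences between 0.59 and 1.25. Akr1b7 was 0.41 and 0.43 TPM in controls and 2.13 and 1.89 TPM with sg492. It reached the level needed to be tested through its sg492 libraries, so it is named as a description.

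Among the lower genes, Mgarp, a mitochondrial protein of organelle transport, had the smallest unadjusted p at 31.8 and 30.7 TPM in controls against 20.9 and 19.8 TPM with sg492 (log2 difference −0.60, SE 0.06, adjusted p = 0.082 in limma). H2-K1, a classical MHC class I heavy chain, was 32.2 and 30.4 TPM in controls and 20.4 and 15.9 TPM with sg492 (log2 difference −0.76, SE 0.15, adjusted p = 0.21 in limma). Over the 12 MHC class I and peptide loading genes tested the median log2 difference was −0.01, and B2m, the light chain, was 239 and 233 TPM in controls and 269 and 254 TPM with sg492. Ndrg2, a stress-response gene, was 7.37 and 6.80 TPM in controls and 4.65 and 3.70 TPM with sg492. Myl9, a myosin regulatory light chain, was 2.76 and 3.98 TPM in controls and 1.75 and 1.26 TPM with sg492. Pmepa1, a feedback inhibitor of TGF-β signaling, was 3.78 and 4.64 TPM in controls and 2.15 and 2.62 TPM with sg492. The remaining lower genes were Art5, Sardhos, Pafah1b3, Aire and Rab26os. Sardhos was listed at 0 in both sg492 libraries. It reached the level needed to be tested through its control libraries, so it is named as a description.

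The same genes were then followed into tumors, where each comparison has its own 2 control and 2 sg492 libraries. In tumor cells sorted from tumors and labeled sg492, 8 of the 13 genes higher in culture were above both controls and 3 were below, while of the 13 lower in culture 1 was below both controls and 4 were above. Over all 13152 genes tested there, 19.9% were above and 19.8% below. Tubb2b was 2.76 and 1.33 TPM in sorted control cells and 3.94 and 4.45 TPM with sg492. Tspan7 was 12.2 and 10.7 TPM in sorted control cells and 18.5 and 19.6 TPM with sg492. Gm13611 was 40.5 and 38.5 TPM in sorted control cells and 73.8 and 67.9 TPM with sg492. All 3 were above both sorted controls without overlap, but none passed the test in sorted cells (adjusted p between 0.20 and 0.23 in limma). Flrt3 was 3 and 3.34 TPM in sorted control cells and 9.86 and 7.37 TPM with sg492 (adjusted p = 0.053 in limma).

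In bulk tumors Tubb2b was 4.38 and 2.91 TPM in controls and 4.28 and 4.10 TPM with sg492. Tspan7 was 19 and 10.6 TPM in controls and 20.5 and 13.2 TPM with sg492, so that both genes overlapped their controls. Gm2423 was 2.07 and 4.13 TPM in bulk controls and 6.7 and 5.84 TPM with sg492, above both controls. Gm22721 was 54.6 and 43.05 TPM in bulk controls and 2.57 and 22.5 TPM with sg492, below both. The interaction for Tubb2b was −1.89 for sorted minus cultured (SE 0.37, adjusted p = 0.16 in limma) and −2.52 for bulk minus cultured (SE 0.37, adjusted p = 0.13 in limma), and neither passed.

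Cited1 did not separate the groups in tumors. It was 57.5 and 59.3 TPM in sorted control cells and 62.1 and 50.5 TPM in those labeled sg492, so that the groups overlapped, and 40.2 and 35.0 TPM against 38.0 and 38.8 TPM in bulk tumors. The interaction for Cited1, sorted minus cultured, was 0.79 on the log2 scale (SE 0.18, adjusted p = 0.22 in limma) and did not pass. Over all genes that interaction was called larger for 1 gene (0.0076%) and smaller for 3 (0.0228%), and the bulk minus cultured interaction for 0 genes, with an unadjusted p below 0.05 for 806 (6.13%). In bulk tumors 5 of the 13 genes higher in culture were above both controls and 1 was below, and 3 of the 13 lower genes were below and 3 above, beside 30.5% above and 11.5% below over all genes. Bulk tumors hold other cells, in which fewer cells of a type and less RNA per cell cannot be told apart.

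**Figure D3:**
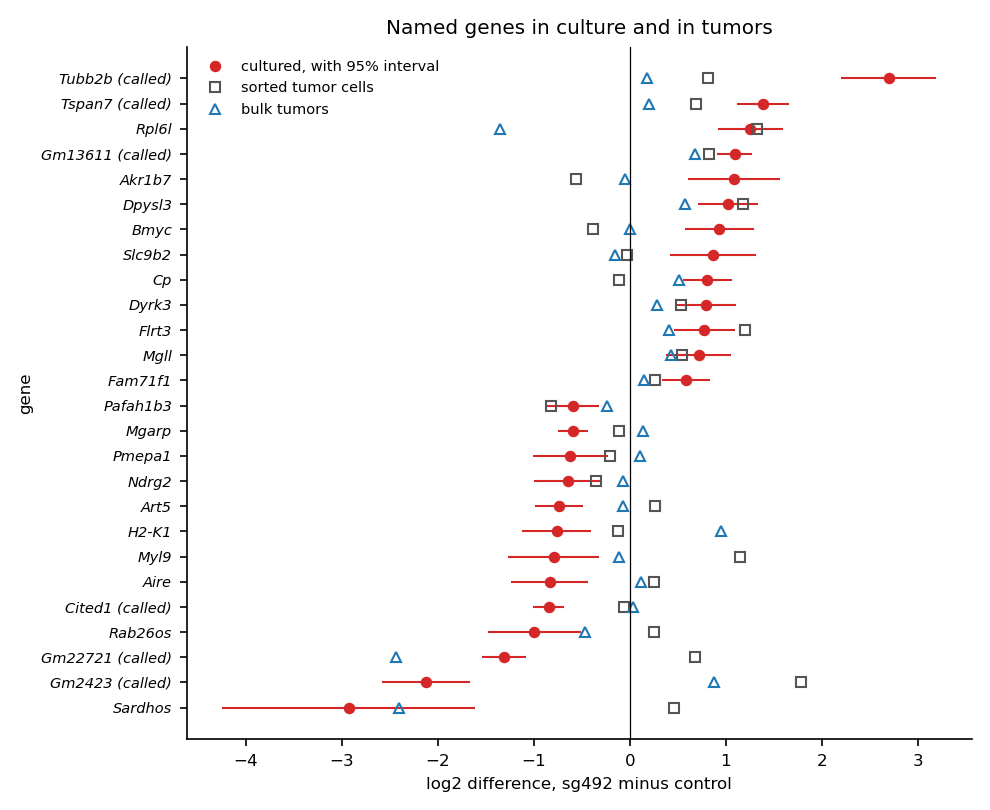
Log2 difference of sg492 minus control for the 26 named genes in cultured cells (circles, with the 95% interval of the limma fit), sorted tumor cells (squares) and bulk tumors (triangles). Tubb2b, Tspan7 and Gm13611 lie to the right of 0 in all 3 sample types, although the bulk tumor libraries of Tubb2b and Tspan7 overlapped their controls, whereas the squares of Gm22721 and Gm2423 lie to the right of 0 and that of Cited1 lies near 0.

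The clearest shared pattern was in the hypoxia and glycolysis genes, which were lower in sg492 cells by a small amount. Of the 33 tested members of this list, 31 were below both controls in both sg492 libraries, beside 14.3% of all genes, and none was above both. The median log2 difference was −0.25, against 0.03 over all genes. Unadjusted p was below 0.05 for 29 members, all of them lower, beside 3.67% of all genes that were lower and 6.91% that were higher at that p. In the fit of all 18 libraries 9 members were lower at such a p, beside 1.61% of all genes. No member was called, because adjusted p was above 0.05 for all but Bnip3, whose change was under the fold of 1.5. Relative to the controls the median of the list was −0.23 in one sg492 library and −0.24 in the other, and −0.004 and 0.004 in the control libraries. Pfkfb3 and Pfkfb4, which make the activator of phosphofructokinase, were the 2 members whose groups overlapped. Car12 did not reach the level needed to be tested.

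Bnip3, a mitophagy receptor of the outer mitochondrial membrane, was the member with the smallest p. It was 457 and 456 TPM in controls and 331 and 317 TPM with sg492 (log2 difference −0.49, SE 0.04, adjusted p = 0.024 in limma), a change below the fold of 1.5. Its relative Bnip3l was 242 and 214 TPM in controls and 196 and 177 TPM with sg492. The largest differences were those of Ankrd37, an ankyrin repeat protein and established HIF target, and of Car9, a tumor-associated carbonic anhydrase. Ankrd37 was 21.1 and 22.6 TPM in controls and 13.2 and 13.5 TPM with sg492. Car9 was 14.6 and 16.1 TPM in controls and 10.2 and 8.91 TPM with sg492. In each of these genes both sg492 libraries lay below both controls.

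The 14 glycolytic enzyme genes were all below both controls, beside 14.3% of all genes, with a median log2 difference of −0.16. Of them 13 had an unadjusted p below 0.05 in limma, beside 3.67% of all genes that were lower at that p. They ran from Aldoc, the brain-type aldolase, at 49.5 and 53.7 TPM in controls and 35.9 and 33.0 TPM with sg492, to Hk1, which supplies the first step in most tissues, at 120 and 117 TPM in controls and 114 and 110 TPM with sg492. Pfkp, the platelet isoform of phosphofructokinase, was 247 and 259 TPM in controls and 199 and 190.0 TPM with sg492 (adjusted p = 0.087 in limma). Even Gapdh, often used as a reference gene, was 4763 and 4739 TPM in controls and 4499 and 4271 TPM with sg492. Ldha, which makes lactate from pyruvate, was 3534 and 3674 TPM in controls and 3291 and 3198 TPM with sg492.

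Genes of transport were also lower in both sg492 libraries. Slc2a1, the basal glucose transporter, was 88.0 and 93.3 TPM in controls and 70.5 and 72.5 TPM with sg492, and Slc16a3, the lactate exporter, was 269 and 276 TPM in controls and 237 and 232 TPM with sg492. Of the oxygen sensors, Egln1 was 101 and 100.0 TPM in controls and 81.1 and 87.1 TPM with sg492, and Egln3 was 7.93 and 8.44 TPM in controls and 5.36 and 5.91 TPM with sg492. The secreted factor Vegfa was 82.9 and 80.5 TPM in controls and 67.9 and 59.1 TPM with sg492, and the vasodilator peptide gene Adm was 16.2 and 16.6 TPM in controls and 12.4 and 13.7 TPM with sg492. Of the genes of collagen and disulfide folding, Ero1l was 446 and 400 TPM in controls and 320 and 302 TPM with sg492, and P4ha2 was 61.3 and 52.9 TPM in controls and 43.0 and 40.9 TPM with sg492. None of these passed the test after adjustment.

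**Figure D4:**
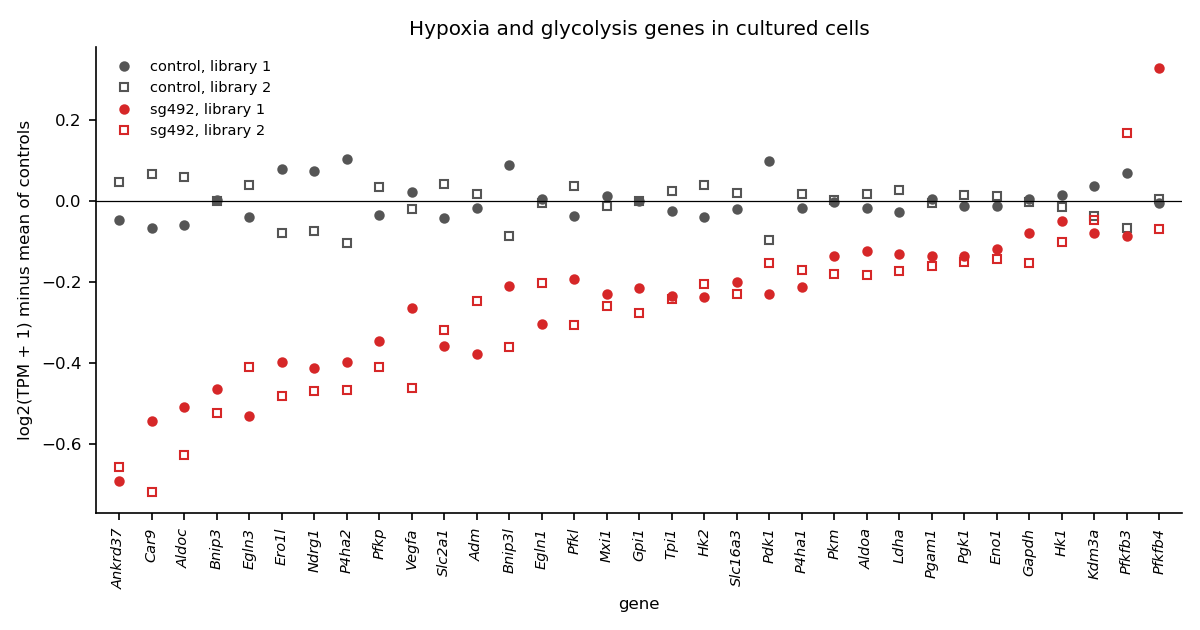
Log2(TPM + 1) minus the mean of the 2 control libraries for the 33 tested hypoxia and glycolysis genes in cultured cells, with 1 point per library, ordered by the difference. The sg492 points (red) lie below both control points (gray) for 31 genes, and the 2 sg492 libraries lie close together.

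The promoters of these genes were searched for the HIF core motifs. The list holds known HIF targets, so a raised share can come from how it was put together. A match is a description, not a bound site, and any part of HIFs in the sg492 difference was not tested. ACGTG or its reverse complement CACGT occurred in 24 of the 45 promoter windows found for 30 of the 33 genes (53.3%), beside 19.6% of all 32851 windows in the table and 26.2% of the 11015 windows of tested genes. Of tested symbols, 8564 of 12012 had an entry. The related core GCGTG or CACGC occurred in 53.3% of the windows of the list and 52.0% of those of tested genes. The windows of Bnip3 (chr7:138909457-138909756, minus strand), Ankrd37 (chr8:45999801-46000100, minus strand) and Car9 (chr4:43506776-43507075, plus strand) are shown as the gene with the smallest p and those with the largest differences (RefSeq, GRCm38.p6). Capitals mark ACGTG or CACGT.
Bnip3: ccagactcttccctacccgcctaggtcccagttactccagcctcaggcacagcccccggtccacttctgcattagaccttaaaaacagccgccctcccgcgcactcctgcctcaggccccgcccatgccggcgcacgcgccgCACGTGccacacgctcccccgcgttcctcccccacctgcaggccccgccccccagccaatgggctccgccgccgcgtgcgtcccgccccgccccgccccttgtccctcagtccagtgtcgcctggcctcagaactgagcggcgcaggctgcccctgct
Ankrd37: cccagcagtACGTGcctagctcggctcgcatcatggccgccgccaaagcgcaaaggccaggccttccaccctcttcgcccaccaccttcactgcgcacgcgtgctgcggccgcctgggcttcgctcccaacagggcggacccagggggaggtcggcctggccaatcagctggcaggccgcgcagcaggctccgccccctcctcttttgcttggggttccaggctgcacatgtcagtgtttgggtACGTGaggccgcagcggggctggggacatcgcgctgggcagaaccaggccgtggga
Car9: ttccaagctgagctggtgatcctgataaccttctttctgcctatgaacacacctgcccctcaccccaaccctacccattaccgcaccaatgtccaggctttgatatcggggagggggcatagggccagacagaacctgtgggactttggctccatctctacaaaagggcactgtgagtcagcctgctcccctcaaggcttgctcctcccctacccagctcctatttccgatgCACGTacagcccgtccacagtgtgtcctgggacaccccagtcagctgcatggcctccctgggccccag
In the Bnip3 window the matches of both strands overlap in 1 palindrome, which begins 108 bases before the start site. Ankrd37 has matches that begin 241 and 6 bases before the start site, and Car9 has 1 that begins 18 bases before it.

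The guides were set side by side on these genes. With sg495, whose comparison shares the control libraries, the list median was −0.59 and 17 of 33 members were called, beside 2.69% of all genes. Tested directly, sg492 against sg495, 8 members were called, beside 2.63% of all genes (316 of 12020, with 254 higher, 2.11%, and 62 lower, 0.516%, in sg492 cells). Bnip3 was 165 and 157 TPM with sg495, and Adm, at 4.25 and 3.81 TPM with sg495, differed between guides with an adjusted p of 0.0016 in limma. Of the 254 genes higher with sg492 than with sg495, 67 lie on chromosome 8, where the median difference between guides was 0.37, against 0.004 to 0.063 on each other chromosome. Nr2f6 and the list members Ankrd37 and Egln1 lie on chromosome 8, and the part of the chromosome in their differences between guides was not tested. Between sg492 and control the chromosome 8 median was 0.03, that of all genes.

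In sorted tumor cells the list median for sg492 was −0.03 and in bulk tumors 0.03. The sorted minus cultured difference was above 0 for 28 of the 33 genes, beside 44.9% of all genes, with a median of 0.19, against −0.02 over all genes. It had an unadjusted p below 0.05 for 6 members, all with a larger value in sorted cells, beside 3.01% of all genes with a larger value, but the lowest adjusted p was 0.35 in limma, so a difference between culture and tumor was not shown for any single member.

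Of the other gene lists, most had medians close to that of all genes. Interferon-stimulated genes had a median of 0.12, and 12 of 26 were above both controls, beside 27.3% of all genes, with Rsad2, an antiviral radical SAM enzyme, at 3.70 and 3.98 TPM in controls and 5.01 and 7.14 TPM with sg492 (adjusted p = 0.46 in limma). Oas1a went the other way, at 2.66 and 3.02 TPM in controls and 1.53 and 1.61 TPM with sg492. The p53 target list had a median of 0.09 and 13 of 23 members above both controls, led in p by Ccng1, a cyclin that p53 induces, at 91.2 and 93.6 TPM in controls and 114 and 115 TPM with sg492 (adjusted p = 0.12 in limma). Among 40 cell cycle genes 18 were above both controls, with a median of 0.03. Ccnd1, the cyclin of G1 entry, was 65.7 and 65.1 TPM in controls and 81.7 and 78.5 TPM with sg492 (adjusted p = 0.16 in limma).

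Among 22 melanocyte genes Cited1 was the one called, and the median was 0.03. Mitf was 155 and 134 TPM in controls and 167 and 174 TPM with sg492, and Oca2, a melanosome channel gene, was 25.4 and 22.1 TPM in controls and 17.1 and 17.0 TPM with sg492. Neither passed the test. Of 24 nuclear receptor genes tested none was called. Nr2f2, the COUP-TFII relative of Nr2f6, was 42.8 and 39.5 TPM in controls and 53.2 and 48.0 TPM with sg492 (adjusted p = 0.33 in limma). Hmox1, which degrades heme, was 118 and 109 TPM in controls and 88.1 and 74.0 TPM with sg492 (adjusted p = 0.20 in limma).

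In some lists libraries of the same group differed from each other. Targets of ATF4, the transcription factor of the amino acid stress response, had a median of −0.21, but relative to the controls this was 0.01 in the first sg492 library and −0.38 in the second. With sg495 it was −0.23 and −0.26. Atf4 was 290 and 289 TPM in controls and 303 and 203 TPM with sg492, and Chac1 was 25.8 and 23.7 TPM in controls and 30.2 and 9.28 TPM with sg492, so the groups overlapped. Of the 22 members 5 had an unadjusted p below 0.05 in limma, all lower, beside 3.67% of all genes that were lower at that p. Among these 5, Ppp1r15a was 17.5 and 16.9 TPM in controls and 13.5 and 12.9 TPM with sg492. The 13 mitochondrially encoded genes had a median of 0.17, at 0.04 in the first sg492 library and 0.26 in the second. The control libraries were at 0.09 and −0.09 and the sg495 libraries at 0.40 and 0.25, so this list varied within each group. The list around Nr2f6 was at −0.16 and 0.02 in the sg492 libraries and at 0.02 and −0.02 in controls. The part of these library differences in other results was not tested.

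**Figure D5:**
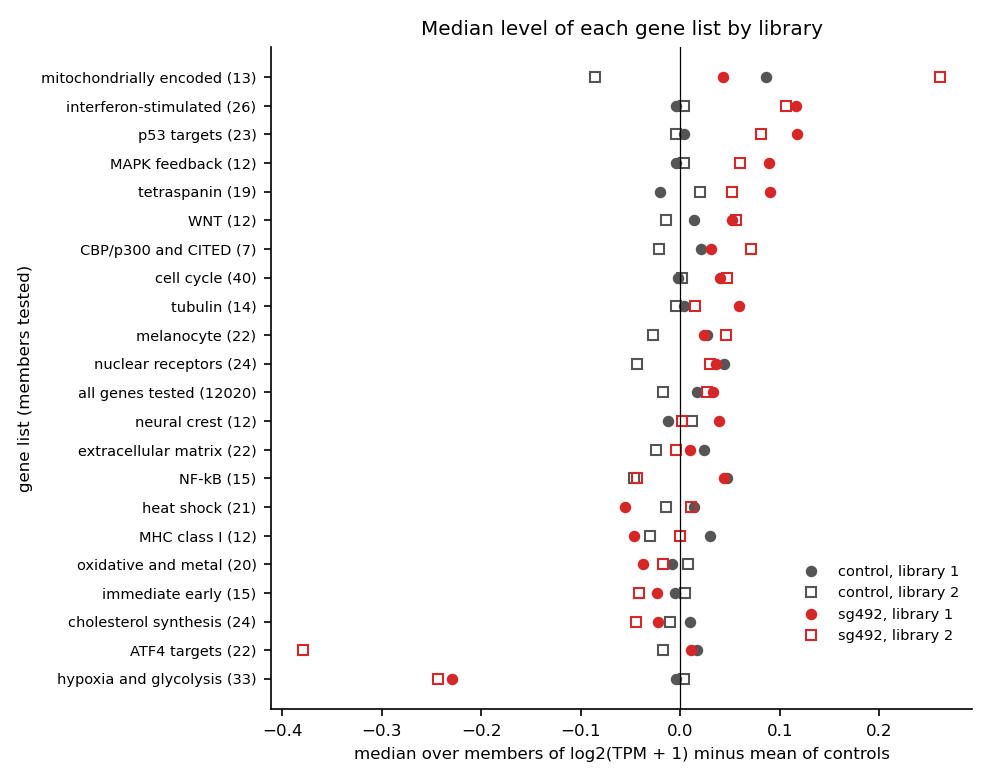
Median over the tested members of each gene list of log2(TPM + 1) minus the mean of the controls, with 1 point for each of the 4 control and sg492 cultured libraries and the number of members in brackets. The hypoxia and glycolysis list has both sg492 points below −0.2, whereas for the ATF4 targets the first sg492 point lies near 0 and the second at −0.38.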

How the data were processed

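Poly(A) RNA libraries were sequenced as single-end 75-base reads. Per the labels and the study's methods, the authors trimmed reads with cutadapt 2.3, aligned them to mm10 with STAR 2.7.0d and estimated levels with RSEM 1.3.1. The deposited table holds TPM per gene, each library scaled to the same total, for all 18 columns of the 3 sample types and 5 others not used here.

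The 4 libraries together had to average 1 TPM or more for a gene to be kept, which left 12020 genes beside 27149 listed at 0 in all 4 and 8474 with a lower mean. TPM are not counts, so a linear model with a mean-dependent prior spread (limma 3.58.1, R 4.3.3, two-sided) was fitted to log2(TPM + 1) of the 6 cultured libraries with 1 mean per group. Fold changes are on that scale, which understates changes of low genes. Called genes passed 0.05 after Benjamini-Hochberg adjustment and a fold of 1.5. Interactions came from a fit of 18 libraries on 13152 genes. Scripts were tested on simulated data. Positions are from GENCODE M21 (GRCm38, the build of mm10), which matched 11990 of the 12020 genes. The authors' annotation release can differ from it.

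Named genes were every called gene, then the 10 genes in each direction with the smallest unadjusted p among those with a fold of at least 1.5 and no overlap between groups, leaving out model names and small RNAs, then members of the gene lists. The genes and lists were chosen with earlier results of these data known. Cell type lists not described above gave no called gene: 4 leukocyte, 2 fibroblast, 1 endothelial and 1 keratinocyte gene reached 1 TPM. Replicate numbers are not stated to pair libraries, so the replicate block was only an alternative.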

Additional observations from a re-analysis of the deposited data

Results flagged for a closer look

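For 4 genes the sg492 difference was called unequal between cultured cells and cells sorted from tumors, by the interaction term of the limma fit over 18 libraries (4 of 13152 genes, 1 with a larger value in sorted cells, 0.0076%, and 3 with a smaller one, 0.0228%). Bmyc had an interaction of −1.32 on the log2 scale (SE 0.17, adjusted p = 0.035 in limma). It was 2.82 and 3.40 TPM in cultured controls and 6.88 and 6.73 TPM in cultured sg492 cells, and 14.2 and 12.1 TPM in sorted controls and 9.57 and 9.98 TPM in the sorted libraries labeled sg492. Ehd4, an endosomal ATPase gene, had an interaction of −0.77 (adjusted p = 0.0498 in limma), at 21.8 and 22.5 TPM in cultured controls, 28.4 and 27.0 TPM in cultured sg492 cells, 19 and 20.8 TPM in sorted controls and 13.9 and 14.5 TPM in the sorted sg492 libraries.

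The other 2 are small RNA genes. Mir678 had an interaction of −5.43 (adjusted p = 0.047 in limma) and was listed at 0 in both sorted sg492 libraries, against 25.8 and 17.3 TPM in sorted controls. Its cultured values were 11.9 and 19.6 TPM in controls and 44.4 and 21.4 TPM with sg492. Snord88a was listed at 0 in 16 of the 18 libraries, with 13.3 and 20.4 TPM in the sorted sg492 libraries. Its interaction of 4.13 is given as a description with no p, since it reached the level needed to be tested through those 2 libraries alone. Nr2f6 was not lower in those sorted libraries than in their controls. Groups of 2 libraries were too small for a search for single libraries that stand apart.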

How the results depend on the processing

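None of the values of the 26 named genes changed direction. Only median-of-ratios scaling and quantile normalization could have changed a direction. In all other alternatives it was fixed in advance, since for each of these genes both sg492 libraries lay beyond both controls. The alternatives other than fits without 1 library kept the 4 control and sg492 libraries. Each of the 6 called genes was called in 5 to 7 of the 10 or 11 of these in which it was tested. Of the named genes not called, Rpl6l, Bmyc and Akr1b7 were each called in 1 of them. The call of Akr1b7 is given as a description, since it reached the level needed to be tested through its sg492 libraries. The counts of 3 up-regulated and 3 down-regulated genes became 0 and 0 in the fit of 4 libraries only, 2 and 0 in the fit of all 18 libraries, 3 and 5 with no fold threshold and 7 and 1 for eBayes without trend. Without each cultured library in turn they ranged from 0 to 1 and from 0 to 1. With replicate number as a block, the counts were 0 and 0. Deviations of same-numbered libraries correlated at 0.007, 0.051 and 0.022, so the numbers were not taken to pair libraries. Tubb2b was called with median-of-ratios scaling but not with quantile normalization or a pseudocount of 0.1 TPM. With no expression filter 1 of the 6 called genes was called.

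Between guides the 316 called genes became 1324 with no fold threshold, and ranged from 137 to 278 without single libraries. The 4 genes of the sorted minus cultured interaction became 8 with a pseudocount of 0.1 TPM, 1 with median-of-ratios scaling, 1 with quantile normalization, and 1 to 6 without single libraries. The bulk minus cultured interaction called 0 genes in limma, where 806 had an unadjusted p below 0.05, 9 with no expression filter, 1 for eBayes without trend, and 0 to 55 without single libraries, the last without the first bulk control library. The causes were not tested.

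The hypoxia and glycolysis median stayed between −0.28 and −0.23 under every alternative run, some of which could not move it. Its 29 members with an unadjusted p below 0.05 became 9 in the fit of all 18 libraries and 23 to 28 without single libraries, in alternatives chosen after seeing the data. In each sg492 library alone 32 of 33 members were below both controls, beside 25.5 and 27.2% of all genes. Of 344 list medians over the alternatives, 60 moved by more than the spread between libraries. These medians were fixed in advance with the replicate block and in the fit of all 18 libraries. They were also fixed in the fit of control and sg492 libraries alone and without either library of the second guide. The 344 therefore include values that could not move. Scalings moved the median of all genes from 0.03 to 0 at most, under 0.1.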
